A study of Mus musculus with 11 samples.

Results

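The 75 genes described here carry the names of mitochondrial ribosomal protein genes: 46 Mrpl genes, named for the large subunit, and 29 Mrps genes, named for the small subunit. The name does not always give the place of the protein, and Mrps18a and Mrps36, described below, are only examples of this. They were chosen by symbol alone, as every Mrpl or Mrps symbol followed by a number and an optional letter among 28944 transcript clusters, the units in which the array reads genes. Of these 75 genes, 11 were read by more than 1 cluster, and the cluster of highest mean signal stood for the gene. RNA came from sorted LSK cells of C57BL/6 mice, the bone marrow fraction without lineage markers and with Sca-1 and Kit, in which stem cells and early progenitors are found. The tested animals were Klf5 knockout (KLF5 KO, 5 samples) and the others Klf5 wild type (KLF5 WT, 6 samples). The descriptions of both genotypes carry the Mx1-Cre transgene (spelt MxlCre there), a Cre recombinase under an interferon-responsive promoter that is not restricted to blood cells. The labels give neither age, sex nor an induction step, and they do not tell arrays of separate animals from repeats, so p-values rest on a spread between arrays that may in part be technical. The study's title ties Klf5, a transcription factor of the Krüppel-like zinc-finger family, to marrow homing of these cells.

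Mitochondria translate the few proteins encoded in their own DNA, all subunits of the respiratory chain and ATP synthase, on a ribosome of their own. Its RNA is mitochondrial, whereas its proteins are encoded in the nucleus, made in the cytosol and imported. Many descend from bacterial ribosomal proteins and others were gained by the mitochondrial ribosome. Quiescent blood stem cells rely comparatively little on respiration, and mitochondrial activity increases as they enter the cycle and differentiate. Signals are log2 values after robust multi-array averaging (RMA), so that 1 unit is a 2-fold step, and differences are knockout minus wild type. The main comparison has 4 knockout arrays (replicates 2 to 5) and 5 wild-type arrays (replicates 2 to 6). Replicate 1 of each genotype was normalized apart and is given beside them with no test.

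Nuclear genes of mitochondrial ribosomal proteins are known for compact, GC-rich promoters with sites for NRF1, for ETS factors such as GABP, and for YY1. RefSeq promoter windows (GRCm38.p6, 250 bases before to 50 after the start) were matched by symbol for 66 of the 75 genes, which have 72 windows; Mrpl4, Mrpl13, Mrpl15, Mrpl19, Mrpl38, Mrpl54, Mrps28, Mrps34 and Mrps35 were not matched. The bases from 250 before to 25 past the start are shown for 4 of the genes compared below. Mrpl14 and Mrps11 had a lower mean in knockout, Mrps18b and Mrps26 a higher one. None of the 4 passed the test between genotypes after adjustment, and the genotypes overlapped in Mrps11 and Mrps26. These genes were picked with their differences known. The stretches lie at chr17:45686099-45686373 (plus strand, Mrpl14), chr7:78782881-78783155 (plus strand, Mrps11), chr17:35916416-35916690 (minus strand, Mrps18b) and chr2:130563507-130563781 (plus strand, Mrps26). Capitals mark letters that match a searched motif on either strand.
Mrpl14: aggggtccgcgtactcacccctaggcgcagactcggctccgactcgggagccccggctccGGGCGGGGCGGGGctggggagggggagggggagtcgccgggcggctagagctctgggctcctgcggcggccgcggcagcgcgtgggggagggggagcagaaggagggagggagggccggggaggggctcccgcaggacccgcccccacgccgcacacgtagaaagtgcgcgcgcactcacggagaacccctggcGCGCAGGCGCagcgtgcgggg
Mrps11: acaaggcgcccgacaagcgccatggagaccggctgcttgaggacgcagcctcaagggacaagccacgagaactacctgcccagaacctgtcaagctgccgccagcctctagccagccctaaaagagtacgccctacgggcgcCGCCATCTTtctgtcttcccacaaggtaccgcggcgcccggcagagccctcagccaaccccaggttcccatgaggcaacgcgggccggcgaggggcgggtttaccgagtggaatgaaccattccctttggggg
Mrps18b: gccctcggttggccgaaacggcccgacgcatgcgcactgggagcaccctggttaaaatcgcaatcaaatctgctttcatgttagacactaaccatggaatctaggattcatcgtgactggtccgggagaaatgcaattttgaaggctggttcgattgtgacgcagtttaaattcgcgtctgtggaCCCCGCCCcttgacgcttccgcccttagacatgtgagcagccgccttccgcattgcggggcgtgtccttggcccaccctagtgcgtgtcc
Mrps26: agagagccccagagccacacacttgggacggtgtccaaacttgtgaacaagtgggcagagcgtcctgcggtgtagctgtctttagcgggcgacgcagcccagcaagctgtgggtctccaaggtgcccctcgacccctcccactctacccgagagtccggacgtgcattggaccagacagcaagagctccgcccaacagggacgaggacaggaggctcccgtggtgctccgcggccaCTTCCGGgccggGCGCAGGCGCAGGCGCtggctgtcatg

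In these 4 stretches the capitals are overlapping GC boxes and an NRF1 motif at the start site in Mrpl14, a YY1 motif on the opposite strand in Mrps11, a GC box in Mrps18b, and an ETS motif on the opposite strand followed by overlapping NRF1 motifs in Mrps26. Over the family, the ETS core CCGGAAG was in 31.9% of the 72 windows, against 8.86% of all 32851 windows and 11.6% of the 21262 windows of protein-coding genes. The NRF1 motif (GCGCA, any base, GCGC) was in 16.7% of family windows, 4.60% of all windows and 6.38% of protein-coding windows. The YY1 motif AAGATGGCG was in 11.1% of family windows, 1.40% of all and 1.83% of protein-coding windows. A GC box, CCCCGCCC, was in 25% of family windows and 23.6% of protein-coding windows, and the CACCC motif CCACNCCC in 22.2% and 19.4%. Both were searched as motifs of the kind that Krüppel-like factors bind. TATAAA was in 6.94% of family windows and 12.6% of protein-coding windows. The median GC content was 58.2% in the family and 56.3% in protein-coding windows. Both strands were searched for each motif, and these shares are counts of letters with no test. The median difference between genotypes was 0.06 in the 23 genes with an ETS motif and 0.06 in the 43 without, and 0.06 in the 12 with an NRF1 motif and 0.06 in the 54 without. It was -0.05 in the 8 genes with a YY1 motif and 0.07 in the 58 without, and 0.15 in the 16 with a GC box and 0.04 in the 50 without. For the CACCC motif it was 0.07 in 16 genes with it and 0.06 in 50 without, and for TATAAA 0.49 in 5 genes with it and 0.06 in 61 without. None of these differences was tested.

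The arrays carried the LSK markers: mean signals were 10.04 in knockout and 10.22 in wild type for Kit, 7.59 and 7.67 for Ly6a, which encodes Sca-1, and 10.49 and 10.35 for Cd34. The Klf5 cluster spans the transcript and may hold probes outside the deletion. It averaged 6.69 ± 0.08 in the 4 knockout arrays and 6.89 ± 0.11 in the 5 wild-type arrays (SD, limma adjusted p = 0.916). All knockout arrays lay below all wild-type arrays, the nearest at 6.76 and 6.77, as in 0.726% of all clusters. The Klf5 difference was -0.20 (95% interval -0.37 to -0.03, limma unadjusted p = 0.028). The globin gene Hbb-b1 was high, between 9.25 and 10.68, on knockout replicates 2 and 5 and wild-type replicates 2 and 6, and between 6.39 and 7.43 on the other 5 arrays. In bulk RNA, fewer cells of a type and less RNA per cell cannot be told apart.

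Mitochondrial ribosomal protein genes gave signals well above those of most clusters. Mean signals over the 9 arrays ran from 4.98 for Mrps27 to 10.08 for Mrpl42, with a median of 7.62, against a median of 5.99 over all clusters. Of the 75 genes, 74 lay above that overall median and 55 above the 75th percentile of all clusters. The median of the negative-control probe sets was between 5.27 and 5.62 per array, and 73 genes exceeded it on all 9 arrays. The 95th percentile of those controls was far higher, between 8.76 and 9.34, and 2 genes exceeded it on every array. Different clusters rest on different probes, so this order is one of signal and not of transcript number.

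The brightest 6 were Mrpl42 at 10.08, Mrpl39 (10.03 in knockout and 9.98 in wild type), Mrps33 at 9.76, Mrpl23 at 9.58, Mrps18c at 9.54 and Mrpl24 at 9.48. From Mrps33 to Mrps18c, neighbours in this order differed by less than their spread: Mrps33 had an SD within genotype of 0.55, Mrpl23 of 0.41 and Mrps18c of 0.49. Mrpl42, Mrpl39 and Mrpl24 each had an SD of 0.14. Mrpl39 lay above Mrps33 by more than its own SD but by less than the SD of Mrps33. The dimmest 6 were Mrps27 at 4.98, Mrpl43 at 6.00, Mrpl45 and Mrps36 at 6.15, Mrpl38 at 6.21 and Mrpl4 at 6.33. Mrps27 was the only gene of the 75 under the overall median. Mrpl45 encodes the protein that in human mitochondria holds the exit of the large subunit at the inner membrane. Mrps36 keeps a ribosomal name, although its human product is now placed with the 2-oxoglutarate dehydrogenase complex.

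**Figure D1:**
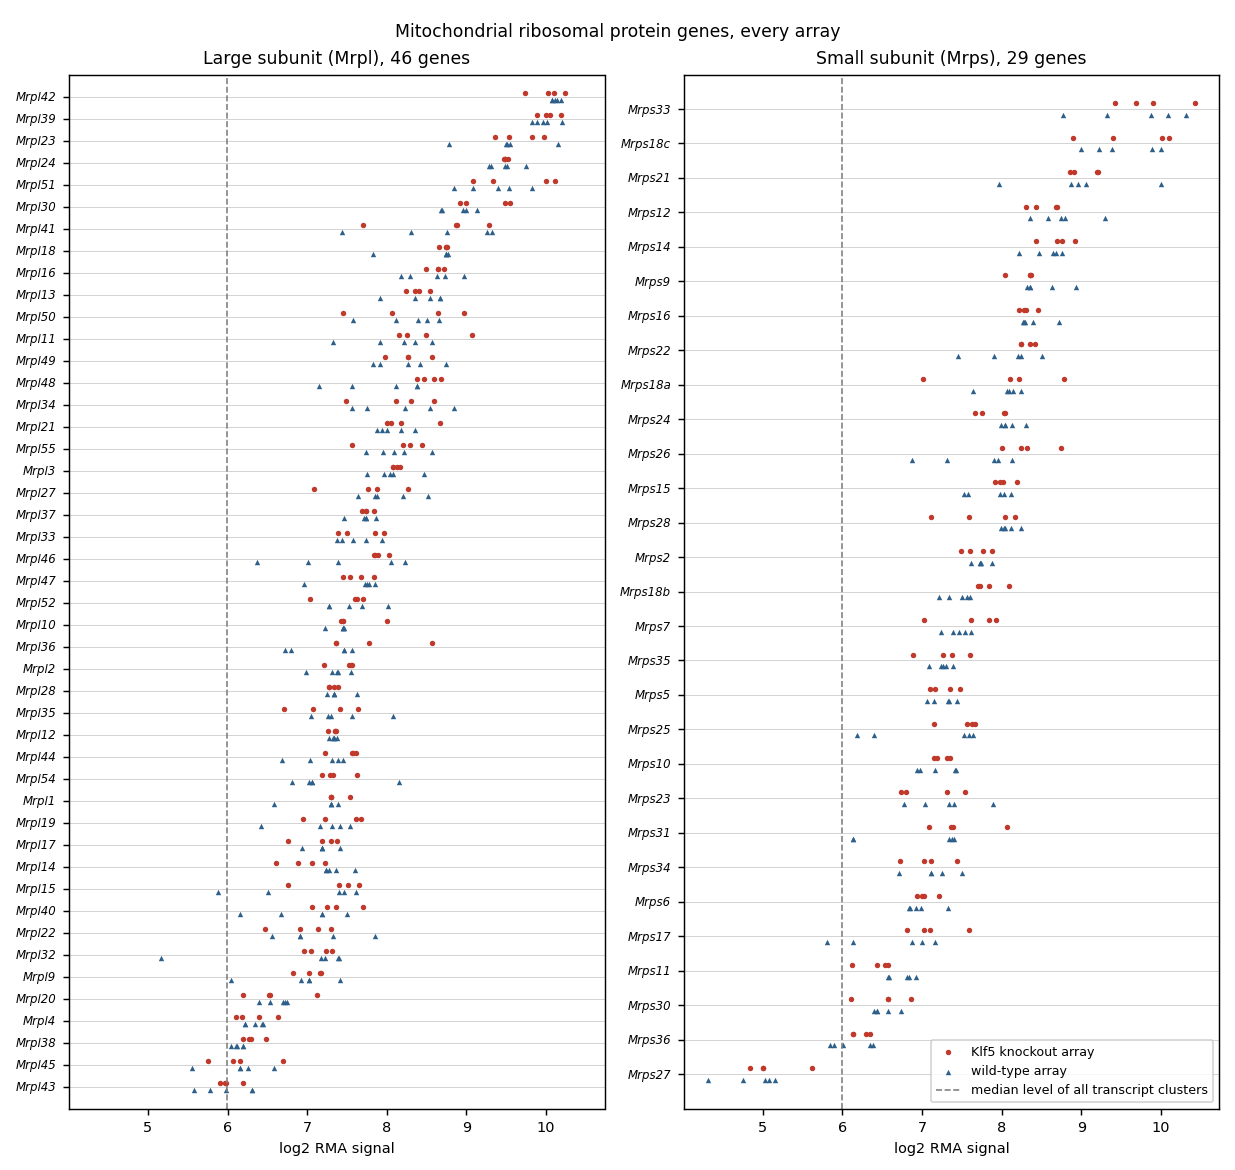
Log2 RMA signal of all 75 genes, Mrpl genes on the left and Mrps genes on the right, ordered by mean. Each red circle is a knockout array and each blue triangle a wild-type array; the dashed line is the median level of all clusters, 5.99, and Mrps27 alone has its mean below it.

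No gene of the family passed the test between genotypes after adjustment (limma, Benjamini-Hochberg adjusted p under 0.05, 0 of 75), and none of the 28944 clusters did (0%, lowest adjusted p 0.907). At an unadjusted p under 0.05 there were 6 genes, which is 8% of the family against 4.08% of all clusters and 5.48% of the 5881 clusters with a mean signal of 7 to 9, the range that holds most of the family. Of these 6, 4 were higher in knockout (5.33%, background 1.45%, and 2.81% in clusters of signal 7 to 9): Mrps18b, Mrps26, Mrpl48 and Mrpl38. The 2 lower in knockout (2.67%, background 2.63%, and 2.67% in clusters of signal 7 to 9) were Mrpl14 and Mrps11. Every array of one genotype lay beyond every array of the other in 2 genes, Mrps18b and Mrpl14, or 2.67% of the family against a background of 0.985% and 1.07% of clusters of signal 7 to 9. Mrps18b was the 1 higher gene (1.33%, background 0.259%) and Mrpl14 the 1 lower gene (1.33%, background 0.726%). The 95% interval of the difference excluded a 2-fold change in either direction in 64 of the 75 genes (85.3%), against 94.5% of all clusters and 88.3% of clusters of signal 7 to 9. On the pair normalized apart, 3 of the 6 genes at unadjusted p under 0.05 had the same sign. These were Mrpl14 (-0.09), Mrps26 (0.05) and Mrpl48 (0.07), whereas Mrps11 (0.05), Mrps18b (-0.04) and Mrpl38 (-0.05) had the opposite sign.

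**Figure D2:**
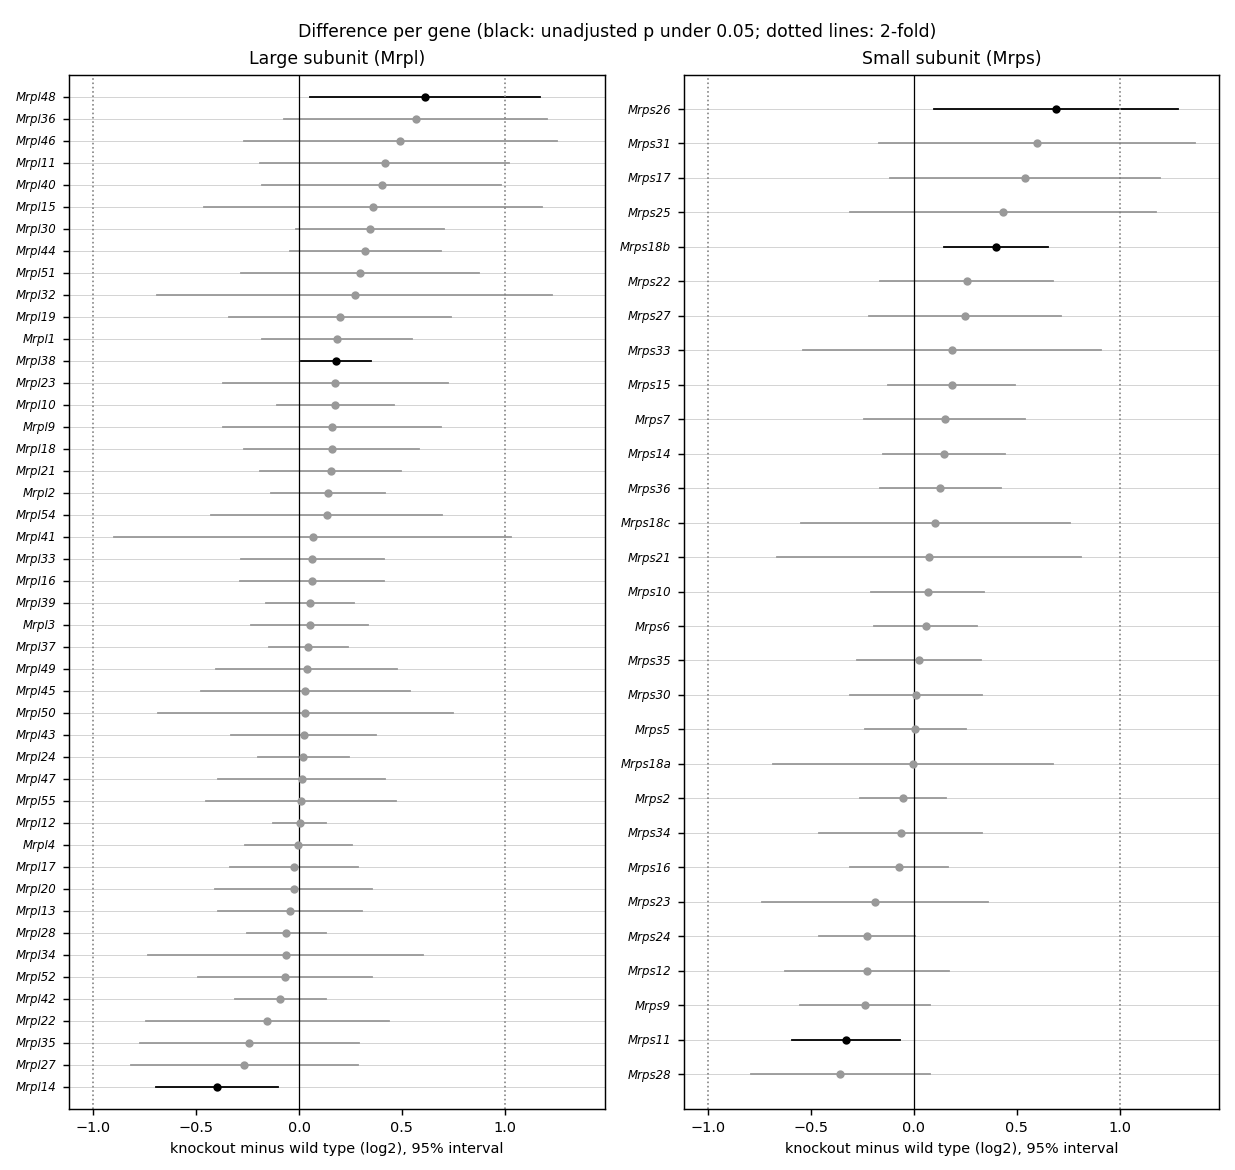
Knockout minus wild-type difference of each gene on the log2 scale, as a point with its 95% limma interval, Mrpl genes on the left and Mrps genes on the right. Black marks the 6 genes at an unadjusted p under 0.05, and dotted lines mark a 2-fold change; Mrpl14 lies lowest at -0.40 and Mrps26 highest at 0.69.

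Most genes of the family had a higher mean in knockout than in wild type. The difference was above 0 in 53 genes and below 0 in 22, so 70.7% were higher, against 44.1% of all clusters and 58.8% of clusters with a mean signal of 7 to 9. The median difference was 0.06 in the family, -0.02 over all clusters and 0.04 in clusters of signal 7 to 9. Averaged over the 75 genes, the knockout arrays were at 7.71, 7.88, 7.73 and 7.81 (replicates 2 to 5) and the wild-type arrays at 7.72, 7.68, 7.64, 7.54 and 7.83 (replicates 2 to 6). The genotypes overlapped, with a wild-type array second highest of the 9. Over arrays the family averaged 7.78 ± 0.08 in knockout and 7.68 ± 0.10 in wild type (SD, n = 4 and 5), and clusters of signal 7 to 9 had means of 7.83 in knockout and 7.78 in wild type.

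The side on which most genes lay was not the same in every set of arrays. On the separately normalized pair, 32 of the 75 genes were higher in knockout and 43 lower, with a median of -0.03, where 45.2% of clusters of signal 7 to 9 were higher. Within the 4 arrays of high Hbb-b1 alone, 34 genes were higher and the median was -0.01, whereas in the other 5 arrays 53 were higher and the median was 0.12. With Hbb-b1 as a covariate, 54 genes were higher. Without wild-type replicate 5 the median was 0.035, and without knockout replicate 2 it was 0.13.

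Several lists of markers of other blood cells also had most genes on one side. Of the B cell markers 3 of 15 were higher in knockout and 12 lower (median -0.16), and 4 of the 15 were under the negative-control median. Of the neutrophil and granule markers 10 of 13 were higher (median 0.12, 5 of the 13 under that median), of the mast cell and basophil markers 6 of 9 (median 0.11), of the megakaryocyte markers 6 of 7 (median 0.20) and of the monocyte and macrophage markers 6 of 9 (median 0.10). Of the LSK markers 5 of 12 were higher (median -0.03), of the erythroid markers 7 of 11 (median 0.07), of the T and NK cell markers 5 of 12 (median -0.02, 7 of the 12 under the negative-control median) and of the stroma and endothelium markers 1 of 10 (median -0.04). Also under the negative-control median were 4 of the 9 monocyte and macrophage markers and 3 of the 10 stroma and endothelium markers. The same held for 1 of the 11 erythroid and 1 of the 9 mast cell and basophil markers. None of the markers in these lists passed adjustment. Knockout replicate 3, the array on which the mitochondrial ribosomal genes were highest, was also the highest for the neutrophil, mast cell, monocyte and megakaryocyte lists, with mean signals of 7.17, 6.73, 6.15 and 7.48. Their lowest to highest means over arrays were 6.12 to 7.17 in knockout and 6.21 to 6.53 in wild type for the neutrophil list, 5.77 to 6.73 in knockout and 5.63 to 6.36 in wild type for the mast cell list, and 6.31 to 7.48 in knockout and 6.47 to 7.16 in wild type for the megakaryocyte list. B cell markers averaged between 5.69 and 6.11 in knockout and between 5.74 and 6.62 in wild type. Without knockout replicate 3, 47 of the 75 genes were higher in knockout and the median was 0.04. The part of other cell types in the family's differences was not tested.

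Mrpl genes were higher in knockout in 34 of 46 cases with a median of 0.06. All 4 measured genes of the stalk, the flexible arm that binds translation factors, had a higher mean in knockout, with a median of 0.16: Mrpl11 at the stalk's base differed by 0.42, Mrpl10 by 0.18, Mrpl54 by 0.14 and Mrpl12 by 0.003. None of these passed the test. Mrpl11 was at 8.25, 9.07, 8.16 and 8.50 in knockout replicates 2 to 5 and at 7.91, 8.36, 7.32, 8.22 and 8.57 in wild-type replicates 2 to 6. The genotypes overlapped, with knockout replicate 3 the highest and wild-type replicate 4 the lowest. Mrpl12, whose human protein also binds the mitochondrial RNA polymerase, had the smallest spread of the family, with an SD within genotype of 0.04.

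The central protuberance is the crown of the large subunit, where the mammalian ribosome carries several proteins that bacteria lack. Of its 10 genes, 7 were higher in knockout and 3 lower, with a median of 0.11. Mrpl48 differed by 0.61 (95% interval 0.05 to 1.17, limma adjusted p = 0.916), Mrpl46 by 0.49, Mrpl40 by 0.40 and Mrpl38 by 0.18. Mrpl48 was at 8.60, 8.68, 8.37 and 8.47 in knockout and at 8.37, 7.14, 8.12, 7.56 and 8.37 in wild type. Its lowest knockout array and its highest wild-type arrays held the same value, and wild-type replicates 3 and 5 lay lowest. Mrpl46 was at 8.03, 7.85, 7.84 and 7.89 in knockout and at 8.22, 7.39, 7.01, 6.37 and 8.05 in wild type. Its knockout arrays lay close together and inside the wild-type range. Mrpl38 was at 6.30, 6.27, 6.48 and 6.20 in knockout and at 6.20, 6.20, 6.11, 6.12 and 6.05 in wild type, where the highest wild-type arrays equalled the lowest knockout array. Of the 6 genes around the exit tunnel, through which the new protein leaves, 4 lay higher and 2 lower (median 0.02), among them Mrpl23 (0.18), Mrpl22 (-0.15) and Mrpl45 (0.03).

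Mrps genes held both the largest and some of the lowest differences. Mrps26, which has no bacterial counterpart, was at 8.74, 8.01, 8.24 and 8.32 in knockout and at 7.96, 7.31, 7.90, 6.87 and 8.13 in wild type. Its difference of 0.69 (95% interval 0.10 to 1.28, limma adjusted p = 0.916) was the largest of the family, and its groups overlapped through wild-type replicate 6. Mrps31 was at 8.07, 7.38, 7.09 and 7.36 in knockout and at 7.40, 7.34, 6.13, 6.13 and 7.38 in wild type. Its difference of 0.60 came with wild-type replicates 4 and 5 more than 1 unit under the gene's median. Mrps17, a relative of bacterial S17, differed by 0.54, and Mrpl36, the small zinc-binding relative of bacterial L36, by 0.57.

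The S18 proteins are encoded by a trio of paralogs in mammals, of which Mrps18b and Mrps18c belong to the small subunit while the human product of Mrps18a sits in the large one. Mrps18b was at 7.73, 8.10, 7.84 and 7.70 in knockout and at 7.60, 7.34, 7.51, 7.21 and 7.56 in wild type. All knockout arrays lay above all wild-type arrays, and its difference of 0.40 (1.32-fold, 95% interval 0.15 to 0.65) had the lowest unadjusted p of the family (limma adjusted p = 0.916). In the pair normalized apart its signal was 7.88 for knockout and 7.92 for wild type. Mrps18c differed by 0.10 and Mrps18a by -0.005. Mrps18a was at 7.01 on knockout replicate 2 and 8.78 on knockout replicate 4, a wider range than its wild-type arrays, which lay between 7.64 and 8.24. Whether the 3 paralogs differ from each other in their response was not tested.

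Mrpl14 encodes the relative of bacterial L14, a protein of the face of the large subunit that meets the small subunit; in human mitochondria the assembly factor MALSU1 binds it. It had been singled out because earlier results of these data showed it low in knockout, so its difference is a description. Mrpl14 was at 6.89, 7.06, 6.61 and 7.23 in knockout replicates 2 to 5 and at 7.28, 7.24, 7.60, 7.36 and 7.24 in wild-type replicates 2 to 6. The highest knockout array lay just under the lowest wild-type arrays. The difference was -0.40 (95% interval -0.69 to -0.10), the lowest of the 75 genes. On the pair normalized apart its signal was 7.90 for knockout and 7.99 for wild type. Its size depended on knockout replicate 4, without which it was -0.29, and it was -0.20 in the 4 arrays of high Hbb-b1 and -0.57 in the other 5. Its own level, a mean of 7.17, put it below the family's median and at the 74.6th percentile of all clusters.

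The genes next lowest were Mrps28 at -0.36, Mrps11 at -0.33, Mrpl27 at -0.27, Mrpl35 at -0.24 and Mrps9 at -0.24. Mrps11, a relative of bacterial S11 on the platform of the small subunit, was at 6.43, 6.58, 6.12 and 6.54 in knockout and at 6.58, 6.81, 6.92, 6.83 and 6.59 in wild type. The genotypes met at 6.58, the value of both knockout replicate 3 and wild-type replicate 2 (difference interval -0.59 to -0.07, limma adjusted p = 0.916). Mrps28 was at 7.59, 8.17, 7.11 and 8.04 in knockout and at 8.02, 8.24, 8.0, 8.04 and 8.11 in wild type, so that knockout replicates 2 and 4 were low and the others were within the wild-type range. On the pair normalized apart, Mrps28 was at 9.24 for knockout and 9.06 for wild type, and Mrps11 at 6.83 and 6.78. Knockout replicate 4 was the lowest knockout array in all 3 genes below -0.3. Mrps11 and Mrps28 were also the family members whose pattern was most like that of Mrpl14 over the 9 arrays, with Pearson r of 0.93 and 0.78, followed by Mrps24 at 0.65, and Mrpl38 was the least alike at -0.89. Over all genes the most alike were 2010204K13Rik (0.96), Tmem134 (0.95), Fgl2 (0.94), Bet1l (0.94) and Gm9943 (0.93). These arrays share their genotype difference, and the correlations are a description. Tmem63b, which neighbours Mrpl14 on chromosome 17 in RefSeq, differed by 0.24.

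**Figure D3:**
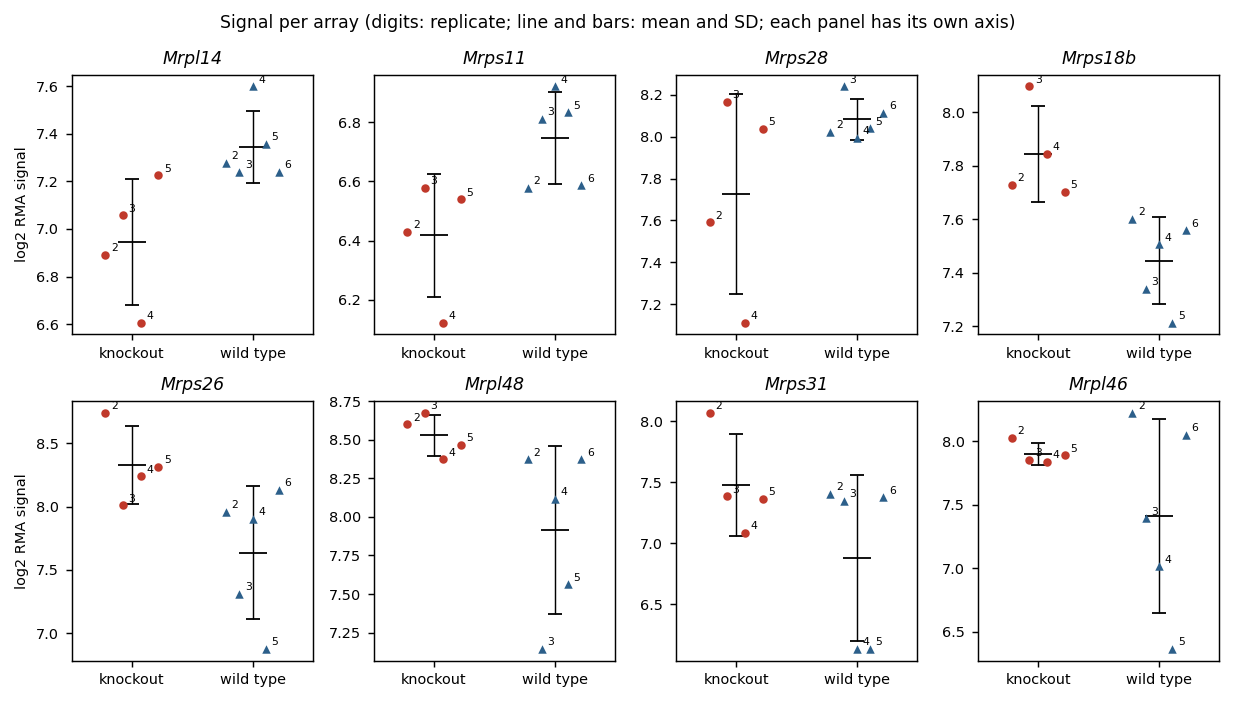
Log2 RMA signal per array for 8 genes, knockout arrays (red circles) left of wild-type arrays (blue triangles), with replicate numbers; horizontal lines are means and bars are SD. The groups separate in Mrpl14 and Mrps18b, and the lowest wild-type values of Mrps26, Mrpl48, Mrps31 and Mrpl46 are on replicates 3, 4 or 5.

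Low values on single arrays fell mostly on wild-type replicates 3, 4 and 5, which are 3 of the 5 arrays of low Hbb-b1. A gene was more than 1 unit below its own median on 15 occasions in 12 genes, and 13 of the 15 were on these arrays. The farthest was Mrpl32, at 5.17 on wild-type replicate 3 against a gene median of 7.22, followed by Mrpl15 at 5.88 on the same array and Mrpl46 at 6.37 on wild-type replicate 5. Counting genes more than 0.5 below their median gave 8, 2, 4 and 0 in knockout replicates 2 to 5 and 4, 8, 10, 17 and 0 in wild-type replicates 2 to 6. In wild-type replicate 5 that is 22.7% of the family against 6.96% of all clusters. All clusters are a set of smaller spread, with a median SD within genotype of 0.18 against 0.29 in the family. In clusters of signal 7 to 9 that SD was 0.28, and their share below 0.5 was not counted. The lowest wild-type value was on 1 of these 3 arrays in 56 of all 75 genes. With 3 of the 5 wild-type arrays, most genes would have it there if all arrays were alike, and the share over all clusters was not counted. Of the values more than 1 unit low, 86.7% in the family and 74.1% in clusters of signal 7 to 9 were on the same 3 arrays, so the arrays stood apart in other genes too.

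The spread was larger in wild type, with a median SD of 0.24 in knockout and 0.32 in wild type; clusters of signal 7 to 9 had medians of 0.23 and 0.27, and all clusters 0.17 and 0.17. The wild-type SD was the larger in 58.7% of the family and in 58.7% of clusters of signal 7 to 9. The genes of widest spread within genotype were Mrpl41 (SD 0.74), Mrpl32 (0.73), Mrpl15 (0.62) and Mrps31 (0.58). Mrpl41 was at 8.88, 8.86, 7.70 and 9.28 in knockout and at 9.32, 8.31, 7.44, 8.75 and 9.26 in wild type, and replicate 4 was the lowest in both genotypes. After Mrpl12, the smallest spread was that of Mrpl38 (0.09).

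**Figure D4:**
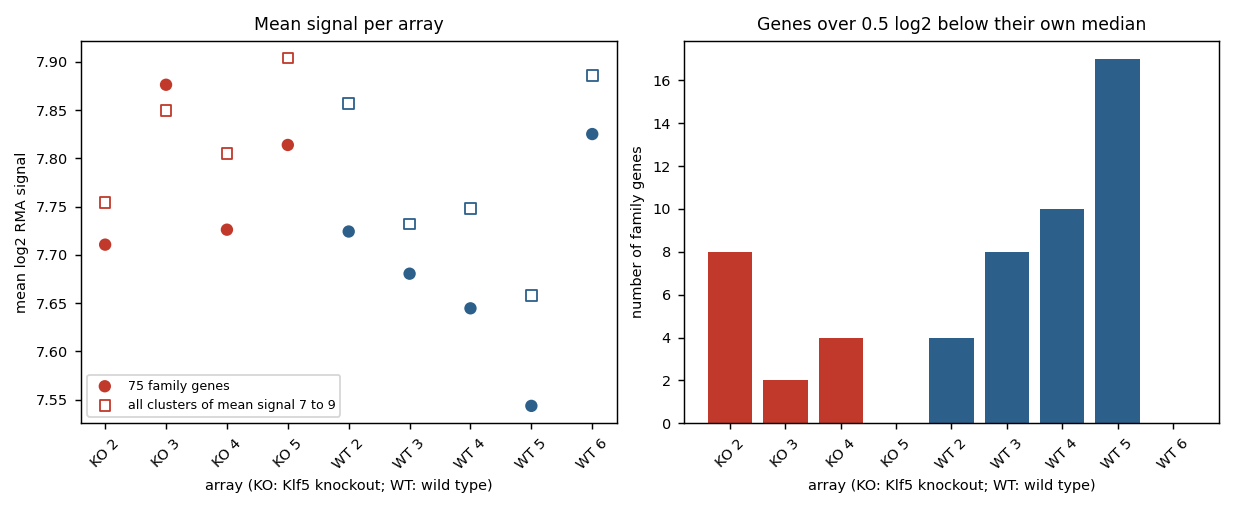
Left, mean log2 RMA signal per array of the 75 genes (filled circles) and of all clusters of mean signal 7 to 9 (open squares), knockout arrays in red left of wild-type arrays in blue. Right, number of the 75 genes more than 0.5 below their own median on that array; wild-type replicate 5 has 17 and both knockout replicate 5 and wild-type replicate 6 have 0.

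The clusters that carry 1 symbol did not always follow each other. Those of Mrpl23 gave nearly the same pattern over the 9 arrays (r = 0.997), with differences of 0.18 and 0.21, and so did those of Mrps33 (r = 0.990, 0.18 and 0.15). For Mrpl51 they did not: r was -0.29, and the brighter cluster differed by 0.30 while the dimmer differed by -0.30. Those of Mrps30 had r = -0.23 with differences of 0.01 and -0.08. For Mrpl48 the brighter cluster, used above, differed by 0.61 and the dimmer by 0.18, with r = 0.76. The others had r between 0.41 for Mrpl18 and 0.78 for Mrpl41, with Mrpl27, Mrpl47, Mrps5 and Mrps10 between them. RefSeq lists a pseudogene named for Mrpl23, for Mrpl27, for Mrpl48 and for Mrps36, of which the last has 1 cluster. The files give no position for these clusters, so whether each reads the gene itself or a copy was not settled, and their levels are uncertain. With the 64 genes of 1 cluster alone, Mrps36 among them, 43 were higher in knockout and the median was 0.06.

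**Figure D5:**
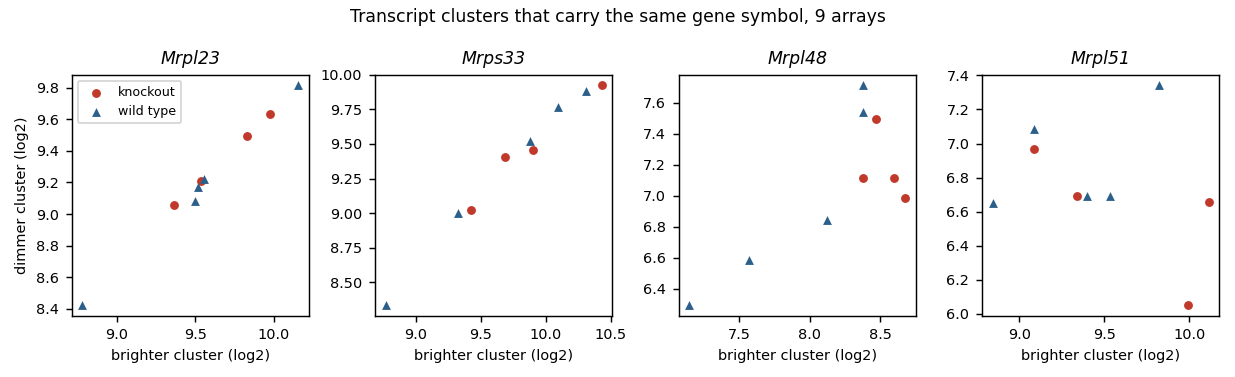
Signal of the dimmer cluster (vertical axis, log2) against the brighter cluster (horizontal axis, log2) that carry the same gene symbol, on 4 knockout arrays (red circles) and 5 wild-type arrays (blue triangles). The clusters follow each other in Mrpl23 and Mrps33 (r = 0.997 and 0.990), less in Mrpl48 (0.76) and not in Mrpl51 (-0.29).

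Other genes of the pathway were set beside the family, and none passed adjustment. Of 7 measured mitochondrial ribosome proteins whose symbols on the array are not Mrpl or Mrps names, 4 lay higher and 3 lower (median 0.09). They included Chchd1, a small-subunit protein (0.59), Gadd45gip1, a large-subunit protein (0.33), Ict1, a peptidyl-tRNA hydrolase built into the large subunit (0.14), and Dap3, a GTP-binding small-subunit protein (0.09). The 3 lower ones were Aurkaip1 (-0.19), Mrp63 (-0.17) and Ptcd3 (-0.13), all of them proteins of the human mitochondrial ribosome. Chchd1 was at 8.71, 8.53, 7.97 and 8.09 in knockout and at 8.17, 7.11, 7.50, 7.71 and 8.20 in wild type, with the knockout arrays above wild-type replicates 3, 4 and 5 and overlapping replicates 2 and 6. Of 14 translation factors 10 were higher, with a median of 0.03, led by the release factors Mtrf1 (0.63) and Mtrf1l (0.42). Of 24 assembly and rRNA-modifying factors 15 were higher, with a median of 0.03. Among them Rbfa, which acts on the maturing small subunit, differed by 0.45, Malsu1, the partner of MRPL14 in human mitochondria, by 0.12, and the pseudouridine synthase Rpusd3 by -0.35, with all knockout arrays below all wild-type arrays. Of 17 mitochondrial aminoacyl-tRNA synthetases 12 were higher, with a median of 0.04, and the largest differences were those of Nars2 (0.49) and Iars2 (0.33), for asparagine and isoleucine. Vars2, for valine, was the lowest at -0.24, with all knockout arrays below all wild-type arrays. Of 15 genes of mitochondrial transcription 8 were higher, with a median of 0.03.

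Of 40 nuclear-encoded oxidative phosphorylation subunits, which work beside the proteins that this ribosome makes, 21 lay higher and 19 lower in knockout. Their median of 0.04 lay between the family's 0.06 and the -0.02 of all clusters, and equalled the 0.04 of clusters of signal 7 to 9 at this rounding. The median signal of these subunits was 9.19, above that range, so those clusters are not a background of like level. Of 80 cytosolic ribosomal protein genes, 23 lay higher and 57 lower (median -0.03); per-array means of that list were 11.76 ± 0.11 in knockout and 11.79 ± 0.07 in wild type (SD, n = 4 and 5). The median signal of the cytosolic list was 12.22, and no clusters of like level were set beside it. Whether the mitochondrial and the cytosolic family differ in their response was not tested. The factors whose motifs were searched had differences of -0.11 for Nrf1, -0.01 for Gabpa and 0.20 for Yy1, none of which passed the test.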

How the data were processed

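Biotin-labelled total RNA was read on Affymetrix arrays, per the labels. The log2 RMA signals deposited by the authors stand in tables of 9 and of 2 arrays, normalized separately, gene-level with default settings per the file headers and made with Affymetrix Expression Console per the submitters' processing notes. A deposited log2 value table equalled them within 5e-05 and tied each column to its sample. After 6612 control rows were left out, 28944 transcript clusters of the 9-array table were tested with limma 3.58.1 in R 4.3.3 (lmFit and eBayes, two-sided, Benjamini-Hochberg adjustment over all clusters, threshold 0.05). The fit was tested on simulated data. The members and lists were chosen with earlier results of these data known. Named genes were Mrpl14, the 6 brightest, dimmest, most higher and most lower, those at unadjusted p under 0.05 or with separate groups, the widest and narrowest spreads, several-cluster genes, the S18 paralogs, and the leading examples of each list. Alternatives changed normalization, filters, variance model, blocks and arrays; 4 were added after seeing the data. No read depth exists for arrays, and their number limits the precision. Promoter windows are RefSeq's, for GRCm38.p6; the files give no positions for the family's clusters. Files were read with pandas 2.3.3 and figures drawn with matplotlib 3.10.9.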

Additional observations from a re-analysis of the deposited data

Results flagged for a closer look

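In each genotype's arrays of a gene, the highest or lowest array was compared with the rest of its group by Dixon's ratio at the 95% level. The 75 genes gave 150 groups and the family's mean signal 2 more; of these 152, 16 had such an array, all in single genes, where chance alone gives about 8. Wild-type arrays were low for Mrpl32 in replicate 3 (5.17, the others 7.18 to 7.40), for Mrpl18 in replicate 5 (7.83, the others 8.75 to 8.77), for Mrpl1 in replicate 5 (6.58, the others 7.30 to 7.39), for Mrpl47 in replicate 2 (6.97) and for Mrpl10 in replicate 4 (7.23). Wild-type arrays were high for Mrpl54 in replicate 5 (8.16, the others 6.81 to 7.07), for Mrps16 in replicate 4 (8.72) and for Mrpl28 in replicate 3 (7.62). Knockout arrays were low for Mrpl2 (7.22) and Mrpl52 (7.03) in replicate 2, for Mrpl44 in replicate 3 (7.23), for Mrpl12 in replicate 4 (7.27), and for Mrpl18 (8.65) and Mrps9 (8.04) in replicate 5. Knockout arrays were high for Mrpl1 (7.53) and Mrpl10 (8.0) in replicate 3. In 8 of the 16, those of Mrpl1, Mrpl10, Mrpl18, Mrpl28 and Mrps9, other arrays of the group held an identical value, which makes the ratio large at a small distance. Identical values on 2 or more of the 9 arrays occurred in 32 of the 75 genes (42.7%) and in 57.5% of all clusters. Wild-type replicates 3, 4 and 5 together hold 7 of the 16.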

How the results depend on the processing

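The Mrpl14 difference stayed below 0 in every setting run, between -0.57 without the 4 arrays of highest Hbb-b1 and -0.20 in those 4 alone, and Mrps18b stayed above 0, between 0.14 in those 4 alone and 0.62 without them. No member passed adjustment in any setting run (lowest adjusted p of a named member 0.599). Of 41 named members 16 kept their sign in every setting. Genes at unadjusted p under 0.05 numbered 0 in the 4 arrays of highest Hbb-b1 alone, where 2.51% of all clusters passed. Genes whose groups did not overlap numbered 2 to 5 when 1 array was left out, from 2.67% to 6.67% of the family where all clusters gave 1.26% to 4.28%; the 5 came without knockout replicate 3, where all clusters gave 1.84%, and without knockout replicates 2 or 5 the family's share was below that of all clusters. Genes higher in knockout numbered 34 in the 4 arrays of highest Hbb-b1 and between 43 and 57 in the other settings. The share of all clusters higher in knockout moved with the setting too. It was 44% in the main fit, 53% in those 4 arrays, 47% under quantile normalization and 55% under median centring. Under quantile normalization 44 genes were higher, with 4 higher and 4 lower at unadjusted p under 0.05 (4.20% of all clusters in either direction). Under median centring 57 genes were higher, with 5 and 2 at that p (3.94%). The rise to 57 thus came with a shift of all clusters. Higher genes at that p numbered 2 with array weights, 2 by the methods' t-test, 1 without knockout replicate 2 and 7 with the block by description, where 1.65%, 1.03%, 1.92% and 3.10% of all clusters were higher at that p. The same-numbered samples of the titles had deviations that correlated at 0.133, 0.11, 0.12 and -0.242. By the numbers in the descriptions the correlations were -0.051, 0.066, 0.121 and 0.404. Deviations may also be alike through array effects such as Hbb-b1, so whether the samples were paired was not settled. With the replicate number as a block Mrpl14 was at -0.42 by title and -0.42 by description, and no member passed.

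The limits are the few arrays, of which 1 can move a gene's difference by more than its own size (Mrpl32 was at 0.27, and at -0.16 without wild-type replicate 3), high Hbb-b1 on 4 arrays of both genotypes, and clusters that share a symbol. Few members exceeded the 95th percentile of the negative controls, so small differences of dim genes are weakly measured.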
